A study of Mus musculus with 9 samples.

Results

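Forced expression of the cyclin-dependent kinase inhibitor p16 was compared with an empty vector in mouse embryonic fibroblasts, across every expressed gene and with each p16 library set against the empty-vector library of the same replicate number. The comparison uses 6 of the 9 RNA-seq libraries of the series, 3 with an empty control lentivirus (EV) and 3 with a lentivirus for p16. These groups were defined by the titles of the libraries, not by measured values. The pairing by replicate number, in contrast, was chosen with the counts of calls with and without it known, and it gave more calls. All cells were C57BL/6 mouse embryonic fibroblasts labelled non-senescent and were harvested on day 4. The remaining 3 libraries came from the same kind of cells given a lentivirus for p21 (Cdkn1a), at the same time point. They entered the same model, where they add to the estimate of the spread, and are described only where p16 is tested against p21. The labels name no promoter for the vectors, give no clone, embryo, sex or culture of origin, and do not say that equal replicate numbers mark a shared culture. P-values with the pairing therefore measure the spread left between these libraries after group and replicate number are accounted for, which may be technical. The spread between replicate numbers is a separate matter. Xist was high and Y-linked genes were low only in number 3, in EV as in p16, as described below. Which source each number came from was not tested. The p16 libraries carry a separate treatment description and a separate run of sample records from the EV and p21 libraries, so a difference between submissions and the effect of p16 cannot be told apart by the labels.

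As background, p16 is encoded by Cdkn2a and binds the kinases CDK4 and CDK6, which cyclin D otherwise activates to phosphorylate the retinoblastoma protein RB. Unphosphorylated RB and its relatives p107 and p130 hold E2F-driven genes down, which covers the enzymes of DNA replication, and the DREAM complex with MuvB holds down the later genes of mitosis through a promoter element called CHR. In fibroblasts, p16 is known for stopping the cell cycle and for accompanying senescence, in which cells enlarge, expand their lysosomes and secrete matrix, proteases and growth factors. The same locus also encodes Arf, which shares exons with p16 in another reading frame and acts on p53 through Mdm2.

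The deposited values are raw read counts for 24062 gene symbols, with 44455730 to 63152239 counts per library over the 9 libraries. Levels below are CPM values, which are read counts scaled to the size of each library by TMM, given in the order of replicate numbers 1, 2 and 3, and are not divided by gene length, so they compare libraries and not genes. Sums over cell type markers are the exception and are scaled to library totals alone, without TMM. Differences are log2 fold changes of p16 over EV with their standard error (SE), and a gene is said to have risen or fallen where edgeR's quasi-likelihood test gave a Benjamini-Hochberg adjusted p under 0.05 over the 14223 genes tested. Of the 14 fibroblast markers, all tested, 6 rose and 3 fell, which is 64.3% called beside 21.4% of all genes tested. Without the pairing by replicate number 1 rose and 0 fell. The 14 markers summed to 39030 to 43870 CPM in EV and 44620 to 47810 CPM in p16. Markers of skeletal and cardiac muscle, 6 of 12 tested, summed to 131 to 147 CPM in EV and 191 to 208 CPM in p16. Nearly all of that sum is 1 gene, the actin Acta1, described below. Markers of adipocytes summed to 20.8 to 22.9 and 25 to 29.2 CPM, and those of macrophages and leukocytes to 29.6 to 46.7 and 37.6 to 67.0 CPM. In bulk RNA, fewer cells of a type and less RNA per cell cannot be told apart.

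Cdkn2a (chromosome 4, 89274471 to 89294653, minus strand, GRCm38) was at 36.9, 42.2 and 34.7 CPM in the EV libraries and at 1927, 1576 and 1691 CPM in the p16 libraries. Every p16 library lay far above every EV library, and the row counts delivered p16, endogenous p16 and Arf together. The difference was 5.51 ± 0.060, a 45.6-fold rise (adjusted p = 1.02e-26). Cdkn1a, the p21 gene, was at 349.8, 375 and 356 CPM in EV and 371, 379 and 367 CPM in p16, a difference of 0.048 ± 0.047 that did not pass (adjusted p = 0.52), with overlapping libraries.

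With the replicate number as a block, 3044 of 14223 genes (21.4%) passed, 1602 higher (11.3%) and 1442 lower (10.1%) with p16. Without the block 1616 passed (11.4%), 825 higher and 791 lower, and all 1616 also passed with it. The block therefore added 1428 genes (10%), 777 higher and 651 lower, and removed none. Most changes were small: 230 of the called genes changed at least 1.5-fold, 169 up and 61 down, and 76 at least 2-fold, 61 up and 15 down. The balance between directions depends on the scaling. On library totals alone, 35.8% of the 3285 called genes were higher, against 52.6% here, and the median of all genes moved from 0.0016 to -0.030 (log2), so changes of that size have no firm direction; no gene called here took the other sign. No cause of this difference between scalings was tested.

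**Figure D1:**
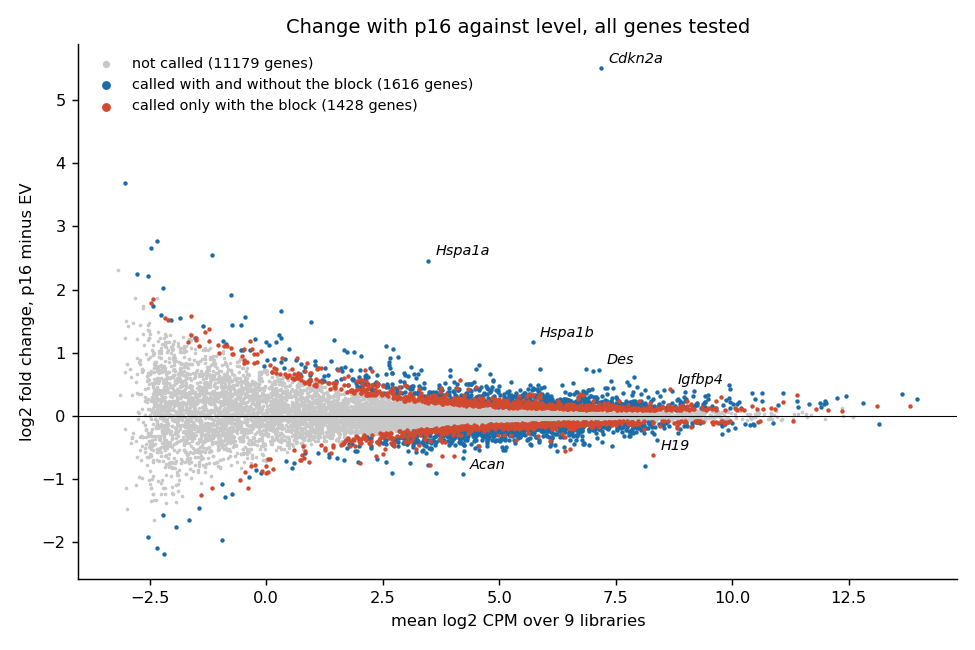
Log2 fold change of p16 over EV (vertical axis) against mean log2 CPM over the 9 libraries (horizontal axis) for the 14223 genes tested; colours mark the 1616 genes called with and without the replicate block and the 1428 called only with it. Cdkn2a stands alone at 5.51, Hspa1a follows among genes of moderate level at 2.46, and the genes called only with the block form a band close to 0 on both sides.

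The genes gained by pairing mostly changed by little, and about 1 in 4 of them (23.5%) also differed between replicate numbers by the same test. H19 (chromosome 7, 142575529 to 142578143, minus strand), an imprinted long non-coding RNA of embryonic tissue, is an example. Its level was 347, 399 and 695 CPM in EV and 214, 261 and 464 CPM in p16. Each p16 library was below its EV partner, yet the p16 library of number 3 was above the EV libraries of numbers 1 and 2, so the groups overlap. With the block the difference was -0.63 ± 0.033 (adjusted p = 4.3e-12). Without it the SE was 0.319 and the adjusted p was 0.246, since the spread between numbers then counted as error.

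Aqp1 (chromosome 6, 55336432 to 55348555, plus strand), a water channel, ran the other way between numbers. It was at 137, 124 and 82.6 CPM in EV and 93.4, 82.7 and 55.6 CPM in p16, so that number 3 was lowest in both groups and each pair fell. Aqp1 fell by 0.57 ± 0.037 with the block (adjusted p = 1.7e-10) and missed without it (adjusted p = 0.13). Il1rn, the secreted antagonist of the interleukin-1 receptor, was at 15.7, 18.9 and 30.3 CPM in EV and 9.18, 12.7 and 19.7 CPM in p16, again with number 3 apart, and fell by 0.65 ± 0.064 (adjusted p = 1.03e-07, without the block 0.195). Slco4a1, an organic anion transporter, was at 23.5, 26.2 and 17.2 CPM in EV and 16.7, 15.3 and 11.2 CPM in p16. Here the groups did not overlap, and the adjusted p moved from 0.0505 to 2.44e-07. The other falls with the smallest p among the gained genes were Abi3bp (-0.79) and elastin, Eln (-0.39), of the extracellular matrix, the leucine-rich repeat protein gene Lrrc17 (-0.35), and Gja1 (-0.21), the gap junction protein connexin 43.

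Among gained rises, Igfbp4 (chromosome 11, 99041244 to 99054392, plus strand), a secreted binding protein of insulin-like growth factors, was at 359, 361 and 274 CPM in EV and 495, 480.1 and 358 CPM in p16. The p16 library of number 3 fell just short of the EV libraries of numbers 1 and 2, while each pair rose. Igfbp4 rose by 0.42 ± 0.030 (adjusted p = 8.8e-10, without the block 0.0807). Ptgs2, the inducible cyclooxygenase of prostaglandin synthesis, was at 772, 738 and 624 CPM in EV and 979, 902 and 742 CPM in p16 and rose by 0.29 ± 0.029 (adjusted p = 1.03e-07). Thrombomodulin, Thbd, an anticoagulant surface receptor, was at 92.8, 81.2 and 106 CPM in EV and 118, 101 and 138 CPM in p16, with number 3 highest in both groups, and rose by 0.35 ± 0.040 (adjusted p = 1.05e-06). The remaining gained rises with the smallest p were the efflux pump Abcg2 (0.30), the contractile protein calponin 1, Cnn1 (0.23), the procollagen protease Adamts14 (0.34), the collagen-binding fibromodulin, Fmod (0.34), and Pqlc1 (0.33). All 16 of these genes kept their call when any pair or any EV or p16 library was left out. They were chosen for their small p, so this does not speak for the other gained genes, which are counted below.

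**Figure D2:**
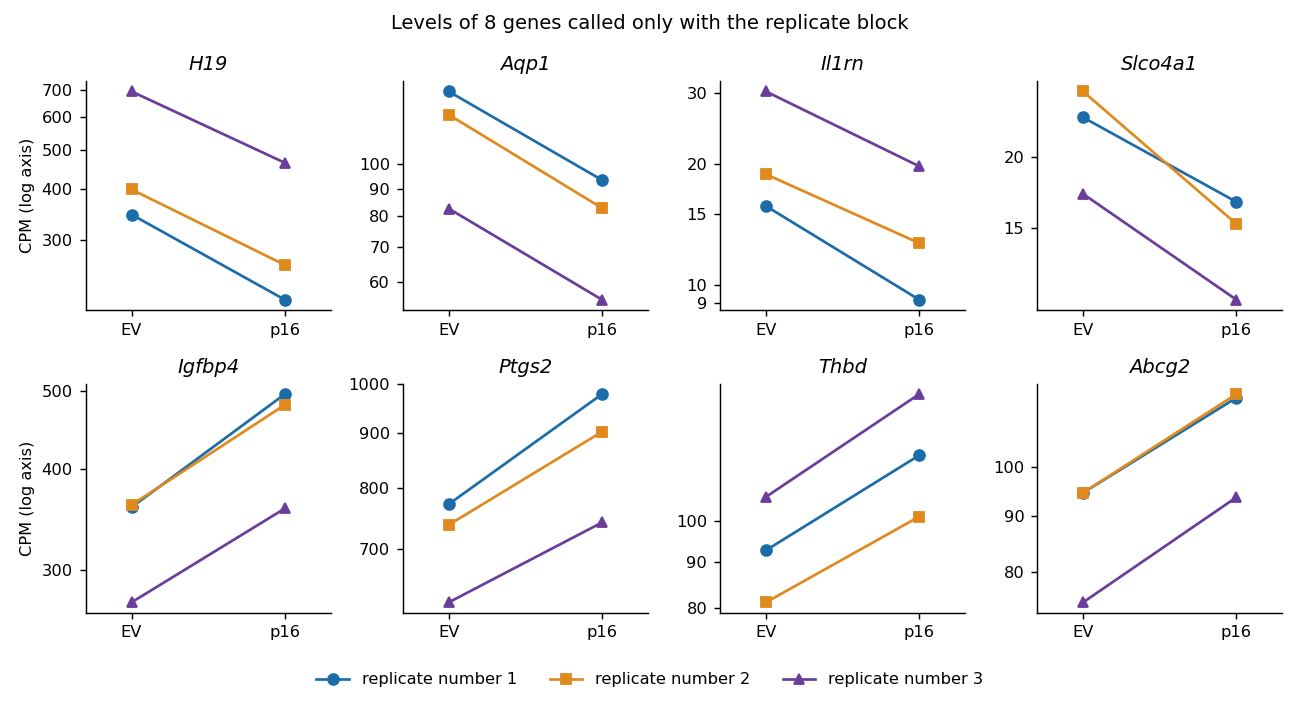
CPM (log axis) of 8 genes called only with the replicate block, in the EV and p16 libraries, with a line joining libraries of the same replicate number. In each panel the 3 lines run in the same direction while their heights differ, with H19 falling from 347, 399 and 695 CPM to 214, 261 and 464 CPM.

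Over all 1428 gained genes the median absolute log2 fold change was 0.172, a 1.13-fold change, against 0.248 (1.19-fold) for the 1616 genes called by both fits and 0.107 for all genes tested. Their level was like that of the genes called by both, with a median log2 CPM of 5.31 against 5.38, and above the 4.22 of all tested genes. The median SE of a gained gene was 0.0495 with the block and 0.0658 without it. The median of each gene's ratio of SEs, without over with the block, was 1.18 for gained genes and 1.07 for those called by both. The terms for replicate number passed the test in 23.5% of gained genes, 6.87% of genes called by both and 7.76% of all tested genes (1104 genes). The sign was the same in all 3 pairs for 1412 of the 1428 gained genes (98.9%), against 99.9% of genes called by both and 55.1% of all tested genes. The groups did not overlap in 68.9% of gained genes, against 99.6% of genes called by both and 32.7% of all tested genes. The rule that a gene passes only with the block favours genes with large differences between numbers. Passing with the block also favours genes with the same sign in all pairs. These shares therefore describe the set and test nothing. Closest to the threshold, Tmem199 was just inside (adjusted p = 0.05) and Tdrd1 just outside (adjusted p = 0.0501).

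**Figure D3:**
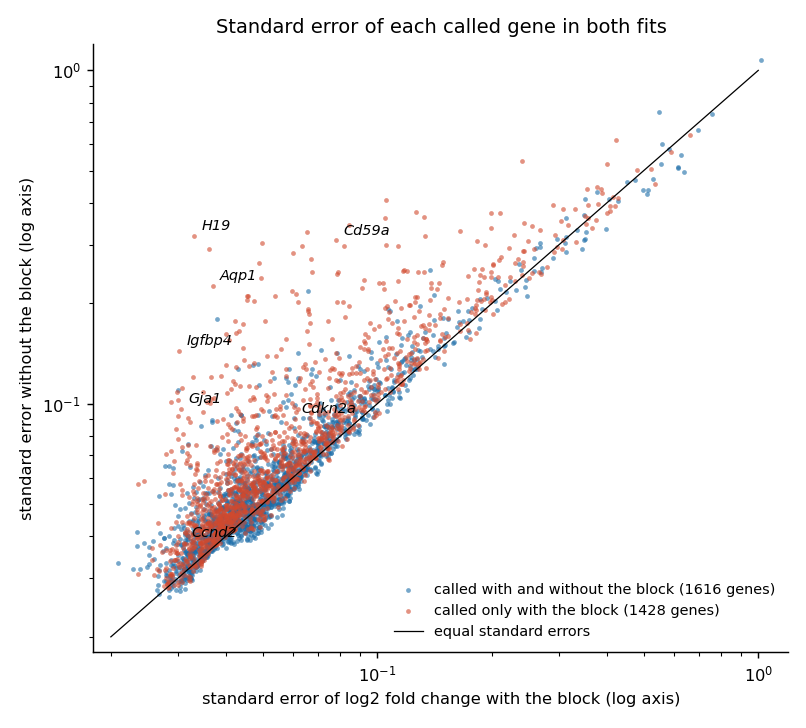
SE of the log2 fold change without the replicate block (vertical, log axis) against the SE with it (horizontal, log axis) for every called gene, with a line of equality. Genes called only with the block reach farther above the line, H19 farthest of those named, with 0.319 against 0.033.

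Replicate number 3 stood apart from numbers 1 and 2 in all groups. Xist, the RNA that coats the inactive X chromosome, was at 0.0902, 0.137 and 251 CPM in EV and 0.17, 0.127 and 181 CPM in p16. Ddx3y, a Y-linked RNA helicase, was at 67.8, 51.8 and 2.2 CPM in EV and 64.4, 55.1 and 1.94 CPM in p16. Eif2s3y, a Y-linked translation factor, showed the same contrast, at 33.5, 30.7 and 1.5 CPM in EV and 30.5, 30.8 and 0.978 CPM in p16. Xist was thus high and the Y-linked genes low only in number 3, in EV as in p16, and in the p21 libraries Ddx3y was at 65.2, 57.6 and 1.06 CPM. Neither Xist (-0.41 ± 0.346, adjusted p = 0.444) nor Ddx3y (-0.0074 ± 0.076, adjusted p = 0.965) differed between p16 and EV beyond the test. Igf2, the embryonic growth factor gene beside H19, followed the numbers too, at 498, 614 and 888 CPM in EV and 507, 625 and 929 CPM in p16, but did not pass between groups (0.039 ± 0.028, adjusted p = 0.358). Its row shares 62.8% of its exon bases with another gene model on the same strand, so its level is uncertain. The chemokine gene Cxcl12 was at 223, 301 and 418 CPM in EV and 209, 292 and 422 CPM in p16, with the same order of numbers and a difference of -0.041 ± 0.031 (adjusted p = 0.39). The cartilage collagen Col2a1 was at 371, 456 and 767 CPM in EV and 335, 385 and 666 CPM in p16. It fell by 0.20 ± 0.036 with the block (adjusted p = 0.000332) and missed without it (adjusted p = 0.722). Of 9 genes of X inactivation and the Y chromosome, 1 fell, the X-linked helicase Ddx3x (-0.17), with the block alone, and 2 fell without number 1. X-linked genes made up 3.43% of the gained genes and 3.19% of all tested genes.

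Pairing added fewest genes where number 3 was left out. In fits of 2 numbers, leaving out number 3 gave 2173 calls with the block and 1515 without it. Leaving out number 1 gave 1281 with the block and 271 without it, and leaving out number 2 gave 1992 and 194. The gained set therefore depends on which pairs enter, and of the 1428 gained genes 223 were called again without number 1, 536 without number 2 and 646 without number 3. The count of all called genes was lowest without number 1, which lowers most list counts below. A list is given with its count without number 1 where that differs by more than 1.5 times. Beside the list counts, 21.4% of all genes passed with the block, 11.4% without it and 9% without number 1. Of 166 genes named here that passed with the block, 46 lost the call in at least 1 of the 9 fits that left out a number or a single EV or p16 library, with the sign kept in each. For those described below, the highest adjusted p of the 9 fits is given as the left-out p.

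Each pair was also held against calls from the other two numbers. Of the 1280 genes called with the block from numbers 2 and 3, 1259 (98.4%) had the same sign in pair 1, against 72.2% of all genes and 69.6% of genes not called. From numbers 1 and 3, 1936 of 1988 (97.4%) had the same sign in pair 2, against 71.9% of all genes. From numbers 1 and 2, 2117 of 2171 (97.5%) had the same sign in pair 3, against 72.5%. The genes called from 2 numbers only with the block had the same sign in the left-out pair in 98% (pair 1), 97.2% (pair 2) and 95.6% (pair 3). Calls from 2 numbers therefore held their direction in the pair they had not used, including those that needed the block. Across the 11287 genes with a mean log2 CPM of at least 1, the p16 minus EV differences of any pair of numbers correlated with Pearson's r of 0.652 to 0.665. That correlation is across genes, which are not independent replicates, and all pairs share whatever set the 2 groups apart.

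**Figure D4:**
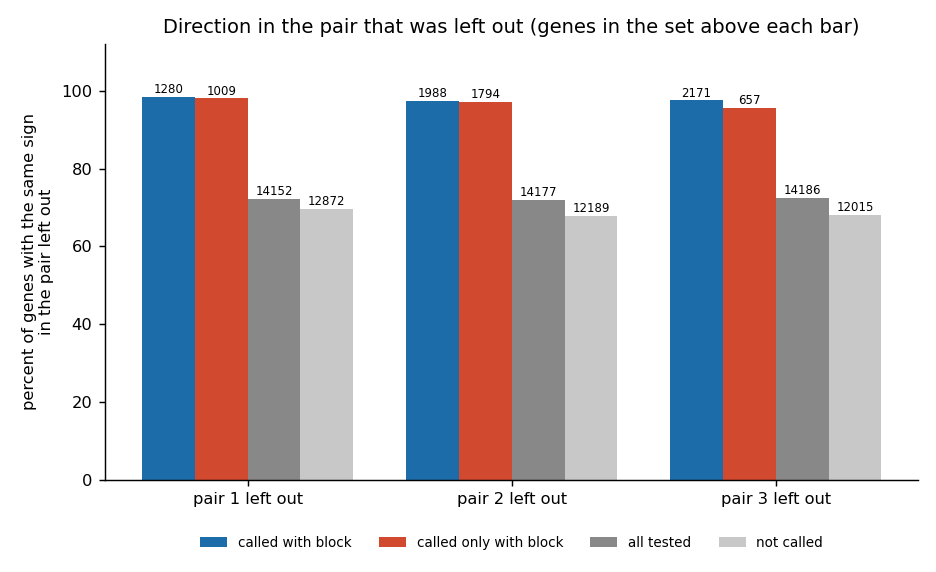
Percent of genes with the same sign of p16 minus EV in the pair left out (vertical axis), for genes called from the other replicate numbers with the block, those called only with the block, all genes tested and genes not called; the number of genes stands above each bar. Called genes reach 95.6% to 98.4% in all 3 pairs, while all tested genes reach 71.9% to 72.5%.

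The RB and E2F axis itself moved in both directions. Of 35 tested members, 12 fell and 7 rose with the block, and 9 fell and 7 rose without it, and 7 fell and 7 rose without number 1, with a median of -0.088 beside 0.0016 over all genes. The D-type cyclins, whose kinases p16 inhibits, rose. Ccnd2 was at 746, 749 and 687 CPM in EV and 1023, 1048 and 991 CPM in p16, with no overlap, and rose by 0.49 ± 0.031 (adjusted p = 1.33e-10). Ccnd1 was at 354, 376 and 324 CPM in EV and 465, 477 and 432 CPM in p16 and rose by 0.38 ± 0.029 (adjusted p = 2.05e-09), with 23.4% of its exon bases under a gene on the opposite strand, which an unstranded library cannot separate. Ccnd3 was at 128, 133 and 130.3 CPM in EV and 144, 150.4 and 159.6 CPM in p16, with no overlap, and rose by 0.21 ± 0.040 (adjusted p = 0.000402). The related inhibitors split: Cdkn2b (p15) rose by 0.34, Cdkn1c (p57) rose by 0.43, while Cdkn2c (p18) fell by 0.52. Mybl2, the B-Myb partner of MuvB, was at 48.9, 48 and 46 CPM in EV and 33.5, 32.9 and 31.3 CPM in p16 and fell by 0.55 ± 0.048 (adjusted p = 2.25e-08). The kinase gene Cdk4, at 305, 311 and 308 CPM in EV and 302, 298 and 302 CPM in p16, and Rb1, at 13.5, 12.3 and 12.1 and 11.9, 12.4 and 11.2 CPM, did not pass (adjusted p = 0.434 and 0.42). Gained members were E2f2 (-0.78), Ccne2 (-0.25) and E2f4 (-0.14), all lower, with left-out p of 0.254, 0.0585 and 0.183. Cdkn2c lost its call without number 1 (-0.45, adjusted p = 0.0531).

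Genes that license and fire replication origins fell together, 24 of 28 with the block and 20 without it, with none higher and a median of -0.235; 13 fell without number 1. Mcm5 (chromosome 8, 75109569 to 75128439, plus strand), a subunit of the replicative helicase, was at 114, 118 and 107 CPM in EV and 87, 87 and 86.2 CPM in p16. Every p16 library lay below every EV library, and Mcm5 fell by 0.38 ± 0.037 (adjusted p = 7.58e-08). Gmnn, the licensing inhibitor geminin, fell by 0.47, the helicase subunit Mcm3 fell by 0.31 and the fork protein gene Wdhd1 fell by 0.38. The gained members were Gins1 (-0.35) of the helicase complex, Donson (-0.21), and Orc5 and Orc2 (both -0.18) of the origin recognition complex, with left-out p of 0.234, 0.283, 0.284 and 0.115. At the fork and in nucleotide supply 32 of 36 fell with the block and 25 without it, none rose and the median was -0.243; 18 fell without number 1. Uhrf1 (chromosome 17, 56303321 to 56323486, plus strand), which recruits the maintenance DNA methyltransferase, was at 122, 131 and 131 CPM in EV and 97.1, 86.4 and 96.8 CPM in p16 and fell by 0.46 ± 0.043 (adjusted p = 6.12e-08). Thymidine kinase, Tk1, fell by 0.34, DNA ligase 1, Lig1, fell by 0.37 and the maintenance methyltransferase itself, Dnmt1, fell by 0.28. Gained members included the sliding clamp Pcna (-0.12) and the ribonucleotide reductase subunit Rrm1 (-0.12), while its partner Rrm2 did not pass (-0.068 ± 0.033, adjusted p = 0.156). The left-out p was 0.13 for Pcna and 0.197 for Rrm1. Homologous recombination and Fanconi genes fell in 16 of 25, 13 without the block and 10 without number 1, with a median of -0.262. Among them were Blm (-0.40), Brca2 (-0.42), Rad54l (-0.39) and Brca1 (-0.36), all of which act in repair of double-strand breaks.

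The promoters of these genes were searched for the E2F words TTTCCCGC, TTTCGCGC, TTTGCCGC and TTTGGCGC on both strands, in RefSeq windows (GRCm38.p6) from 250 bases before to 50 after the start. A match was present in 2.26% of all 32851 windows and for 4.51% of the 10565 tested genes with a window. It was present for 9.77% of the 1105 genes with a window that fell, 2.1% of the 1188 that rose and 5.7% of the 491 that fell only with the block. Of the licensing list 9 of 21 genes (42.9%) had a match and of the fork list 9 of 31 (29.0%). The 250 bases before the starts of Mcm3, Wdhd1, Lig1 and Tk1, which also fell, held no such word. The whole windows of Mcm3 and of a Lig1 start did hold matches. The 250 bases before the start of Mcm5 (chr8:75109259-75109508, plus strand) and of a RefSeq start of Uhrf1 (chr17:56304063-56304312, plus strand) are shown because both genes fell and carry such a word, in capitals; in Mcm5 the capitals are 2 words that overlap on opposite strands.
Mcm5: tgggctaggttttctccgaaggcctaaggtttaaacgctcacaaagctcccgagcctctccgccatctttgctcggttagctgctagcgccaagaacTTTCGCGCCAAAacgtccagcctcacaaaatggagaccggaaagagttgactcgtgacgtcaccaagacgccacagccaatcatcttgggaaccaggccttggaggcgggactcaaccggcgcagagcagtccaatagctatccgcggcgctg
Uhrf1: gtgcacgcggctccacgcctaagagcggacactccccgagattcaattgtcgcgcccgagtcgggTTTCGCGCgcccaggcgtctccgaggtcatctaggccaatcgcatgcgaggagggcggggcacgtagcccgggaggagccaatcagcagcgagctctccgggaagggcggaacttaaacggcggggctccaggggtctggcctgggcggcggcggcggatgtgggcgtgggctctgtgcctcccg

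Genes of G2 and mitosis had the largest share of calls among the 34 lists, 95.0%. Of 60 tested, 57 fell and none rose, 55 of them without the block, with a median of -0.307, so pairing added only Kifc1 and Hmmr (both -0.15, left-out p of 0.21 and 0.197). Mki67 (chromosome 7, 135689784 to 135716361, minus strand), the proliferation antigen Ki-67, was at 257, 235 and 244 CPM in EV and 183, 173 and 171 CPM in p16, with no overlap, and fell by 0.48 ± 0.042 (adjusted p = 1.8e-08). Cyclin A2, Ccna2, was at 108, 109.8 and 102 CPM in EV and 77.2, 77.1 and 76.6 CPM in p16 and fell by 0.47 ± 0.040 (adjusted p = 1.62e-08). Survivin, Birc5, fell by 0.47 and the condensin subunit Smc4 fell by 0.45. The CHR word TTTGAA (either strand) was in the window of 36 of the 48 listed genes with a window (75%), against 14% of tested genes and 21.2% of genes that fell. The window of Birc5 held none. The 250 bases before the start of Mki67 (chr7:135716380-135716629, minus strand) hold 2 such words, in capitals.
Mki67: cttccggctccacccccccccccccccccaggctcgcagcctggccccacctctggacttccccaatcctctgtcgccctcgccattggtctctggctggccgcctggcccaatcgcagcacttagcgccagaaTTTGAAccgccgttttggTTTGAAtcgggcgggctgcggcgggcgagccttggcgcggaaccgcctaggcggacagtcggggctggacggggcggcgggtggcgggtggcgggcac

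Chromatin modifiers that copy silencing marks fell in part. Of 26 Polycomb and DNA methylation genes 9 fell, 5 without the block and 4 without number 1, and none rose. Phf19, a Polycomb accessory protein, was at 13.4, 13.3 and 11.7 CPM in EV and 8.35, 7.16 and 7.34 CPM in p16 and fell by 0.75 ± 0.084 (adjusted p = 7.13e-07). The chromatin remodeller Hells fell by 0.39, the histone methyltransferase Ezh2 fell by 0.26 and its partner Suz12 fell by 0.24. The de novo methyltransferase Dnmt3b was gained by pairing (-0.70 ± 0.207, adjusted p = 0.0176), with a left-out p of 0.224.

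Ribosome genes fell by little. Ribosome biogenesis factors fell in 25 of 41, 19 without the block, with none higher and a median of -0.136, among them the pseudouridine synthase Dkc1 (-0.32), nucleolin, Ncl (-0.22), and Ubtf (-0.21), which acts on ribosomal RNA genes. Ribosomal proteins were the list of the 34 to which pairing added most falls, from 5 to 20 of 53, with a median of -0.074. Without number 1, 4 fell, and without number 2, 12 fell. The share called was 37.7% with the block, 9.43% without it and 7.55% without number 1, beside 21.4%, 11.4% and 9% of all genes. Rpl4 was at 1549.7, 1527 and 1534 CPM in EV and 1385, 1404 and 1372 CPM in p16, and fell by 0.15 ± 0.027 (adjusted p = 0.000281). On library totals the list's median was -0.10 and 37 fell. Ribosomal proteins have many processed copies in the genome, so how the counting assigned shared reads can affect these rows.

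Targets of p53 moved little. Of 30, 6 rose and 1 fell with the block and 1 rose and 1 fell without it, which makes 23.3% called with the block against 21.4% of all genes; on library totals 3 rose and 3 fell, and without number 1 or 2 only 1 rose. The stress cytokine Gdf15 was at 5.54, 6 and 6.34 CPM in EV and 7.5, 8.38 and 10.2 CPM in p16 and rose by 0.54 ± 0.092 (adjusted p = 0.000164). Gained members were Rrm2b, Trp53inp1, Plk2, Pmaip1 and Mdm2, the p53 ubiquitin ligase (0.12 ± 0.032, adjusted p = 0.0108). All of these gained members lost their calls when some libraries were left out, with left-out p of 0.41, 0.29, 0.0726, 0.417 and 0.139.

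Among genes with a mean log2 CPM of at least 1, heat shock genes gave the largest rises after Cdkn2a. Hspa1a (chromosome 17, 34969190 to 34972156, minus strand), an inducible HSP70, was at 5.92, 6.5 and 6.94 CPM in EV and 43.6, 30.6 and 32.9 CPM in p16, a rise of 2.46 ± 0.100 or 5.5-fold (adjusted p = 4.24e-14). Of the exon bases of Hspa1a, 19% lie under a gene on the opposite strand. Its near-identical neighbour Hspa1b was at 40.2, 41.3 and 34.5 CPM in EV and 104, 80.5 and 76.9 CPM in p16 and rose by 1.16 ± 0.054 (adjusted p = 4.17e-13); reads shared by the 2 copies make their split uncertain. The small heat shock proteins Hspb1 and Cryab rose by 0.61 and 0.52, Hspb1 from 173, 178 and 183 CPM in EV to 270.0, 264 and 279 CPM in p16. The list as a whole gave 10 of 33 higher and 2 lower, with a median of 0.039, and without number 1 it gave 5 and 1. Hspa8, the constitutive HSP70, did not pass (0.031 ± 0.026, adjusted p = 0.446). On library totals 5 of the list fell. Hspa1a was lower with p21 than with p16 (-2.59 ± 0.102, adjusted p = 9.76e-15), as was Hspa1b (-0.97 ± 0.053, adjusted p = 7.4e-12), in the test of p21 against p16 in which 3214 genes passed (22.6%). How cells were handled before RNA isolation was not measured in these files.

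Other stress programmes gave calls in both directions. The unfolded protein response gave 1 of 25 higher, the transcription factor Ddit3 (0.30), and 5 lower, among them the chaperone Hspa5 (-0.15), and 0 and 2 without number 1, where Ddit3 did not pass (0.24, adjusted p = 0.0539). ATF4 and amino acid genes gave 3 of 24 higher, with Nupr1 the largest (0.41), and 3 lower, against 2 and 1 without the block and 1 and 3 without number 1 or without the EV library of number 1. With 24% and 25% of members called, both lists were near the 21.4% of all genes. In the fit of the EV and p16 libraries alone the ATF4 list gave 9 higher and 4 lower. That is 54.2% of the list, above the 32.1% of all genes called in that fit. NRF2 and glutathione genes gave 8 of 30 higher and 3 lower, against 4 and 1 without the block and 5 and 1 without number 1, with haem oxygenase, Hmox1, at 86.6, 89.8 and 90.7 CPM in EV and 125, 121 and 113 CPM in p16, a rise of 0.43 ± 0.042 (adjusted p = 1.03e-07). Glutathione reductase, Gsr, fell by 0.30.

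Lysosome genes rose and none fell: 27 of 43 with the block, 20 without it and 14 without number 1, with a median of 0.158. Hexa, a subunit of beta-hexosaminidase, was at 94.9, 106 and 101 CPM in EV and 121, 126 and 117 CPM in p16 and rose by 0.27 ± 0.039 (adjusted p = 2.3e-05). The protease cathepsin D, Ctsd, rose by 0.26, with 34% of its exon bases shared with another model on the same strand. Glb1, the lysosomal beta-galactosidase that serves as the senescence stain, rose by 0.25 ± 0.040 (adjusted p = 9.7e-05). The gained members ran from 0.12 (Tpp1, Cd63 and the proton pump subunit Atp6v1a) to 0.58 (Ctss), with left-out p of 0.306, 0.14, 0.24 and 0.26. Autophagy genes rose in 13 of 29, 10 without the block and 6 without number 1, and none fell. The receptor Sqstm1 had the largest rise (0.31 ± 0.032, adjusted p = 2.05e-07), and Gabarapl1 (0.26) and Map1lc3b (0.23) of the autophagosome membrane were among the others.

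Secreted factors tied to senescence rose in 21 of 52 and fell in 2, against 14 and 0 without the block and 16 and 1 without number 1, with a median of 0.140. Csf1 (chromosome 3, 107741048 to 107760469, minus strand), the macrophage growth factor, was at 787, 786 and 652 CPM in EV and 1105, 1029 and 864 CPM in p16 and rose by 0.43 ± 0.030 (adjusted p = 6.19e-10). Inhba, the activin A subunit, was at 317, 292 and 279 CPM in EV and 405, 388 and 379 CPM in p16 and rose by 0.40 ± 0.029 (adjusted p = 1.17e-09). The lipase inhibitor Angptl4 rose by 0.80 and the collagenase Mmp13 rose by 0.75. Members gained by pairing were Igfbp4, Ccl7, Fgf2, Timp3, Ccl2, Mmp2 and Mmp14, all higher, and Cxcl5 and Igfbp5, both lower. The left-out p was 0.0819 for Fgf2, 0.184 for Ccl2, 0.0876 for Mmp2, 0.101 for Mmp14 and 0.335 for Igfbp5, and Mmp13 did not pass without number 2 (0.56, adjusted p = 0.06). Il6, a cytokine of that secretome, did not pass (0.093 ± 0.185, adjusted p = 0.78), nor did Cxcl1 (0.029 ± 0.215, adjusted p = 0.948).

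Growth factors and their receptors rose in 11 of 36 and fell in 4, against 4 and 2 without the block; 4 rose and 2 fell without number 1, and 5 rose without number 2. Pdgfra, the receptor for platelet-derived growth factor that also marks fibroblasts, was at 33.6, 30.7 and 36.1 CPM in EV and 22.6, 20.0 and 30.6 CPM in p16, with no overlap but with the p16 library of number 3 just below the EV library of number 2, and fell by 0.48 ± 0.074 with the block alone (adjusted p = 5.07e-05, without it 0.119). The growth factor gene Pdgfd was gained as a rise (0.28), and Angpt4, at 1.08, 1.61 and 1.69 CPM in EV and 2.29, 2.72 and 2.97 CPM in p16, rose by 0.87.

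Complement genes mostly passed only with pairing. With the block 8 of 18 rose (44.4%, beside 21.4% of all genes called), and none fell (1 fell on library totals). Without the block 2 rose (11.1%), which is the level of all genes (11.4%). Without number 1, 3 of 19 rose (15.8%, beside 9% of all genes). Clu (chromosome 14, 65968483 to 65981547, plus strand), a secreted chaperone and complement inhibitor, passed in both fits, at 4.28, 3.79 and 3.37 CPM in EV and 9.71, 7.94 and 6.97 CPM in p16, a rise of 1.10 ± 0.096 (adjusted p = 1.96e-08). Cd59a, which blocks the membrane attack complex, was at 13.8, 7.94 and 15.4 CPM in EV and 23.2, 12.3 and 19.3 CPM in p16. Number 2 was low in both groups, and Cd59a rose by 0.57 ± 0.078 with the block (adjusted p = 1.12e-05, without it 0.28). C1qa and C1qb, which macrophages express, were gained too: C1qa was at 0.776, 1.23 and 2.07 CPM in EV and 1.47, 1.64 and 3.5 CPM in p16 and rose by 0.68 ± 0.199 (adjusted p = 0.016). Of 17 tested macrophage and leukocyte markers 5 rose with the block (Csf1r, Lyz2, Tyrobp, C1qa and C1qb) and 0 without it, with left-out p of 0.129, 0.1, 0.094, 0.181 and 0.307. The share called with the block was 29.4%, near the 21.4% of all genes, and without it 11.4% of all genes passed. The summed level of the 18 markers was 29.6, 33.8 and 46.7 CPM in EV and 37.6, 40.7 and 67.0 CPM in p16. None of the 18 markers was at 0 in all libraries, and Ptprc, the pan-leukocyte antigen, did not pass (0.60 ± 0.368, adjusted p = 0.274). The part of such cells in the complement, Ctss and Csf1r values was not tested.

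Interferon response and MHC class I genes gave 3 of 29 higher and 2 lower with the block and 0 without it, a share of 17.2% against 21.4% for all genes, and 1 and 1 without number 1. The gained members were B2m (0.11), H2-D1 (0.15) and Gbp2 (0.35) on the higher side, and the transcription factor Irf1 (-0.21) and Usp18 (-1.14) on the lower. Usp18 was highest in the EV library of number 1, at 2.36, 0.737 and 0.449 CPM in EV and 0.491, 0.525 and 0.448 CPM in p16. Without that library Usp18 was at -0.28 (adjusted p = 0.741), and without number 1 at -0.30 (adjusted p = 0.75). B2m, H2-D1, Gbp2 and Irf1 also lost their calls when some libraries were left out, with left-out p of 0.327, 0.22, 0.421 and 0.244.

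Contractile genes of smooth muscle rose in 16 of 26 and fell in 1, against 11 and 0 both without the block and without number 1, with a median of 0.116. Desmin, Des, an intermediate filament of muscle, was at 87.4, 94.7 and 80.0 CPM in EV and 149, 161 and 125 CPM in p16 and rose by 0.73 ± 0.041 (adjusted p = 1.37e-11). The kinase of myosin light chain, Mylk, rose by 0.43, the smooth muscle myosin Myh11 rose by 0.38 and the actin Actg2 rose by 0.30. Des and Myh11 were higher again with p21 than with p16 (0.63 ± 0.040 and 0.68 ± 0.040, adjusted p = 6.08e-11 and 1.83e-11). Of the skeletal muscle list 3 of 12 rose (25%, near the 21.4% of all genes called) and 1 rose without number 1, with the actin Acta1 at 138, 123 and 137 CPM in EV and 189, 184 and 201 CPM in p16, a rise of 0.53 ± 0.038 (adjusted p = 8.8e-10). The regulators Myod1 and Myog were under the count minimum and were not tested.

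Matrix genes split by kind. Of 48 matrix glycoproteins and crosslinking enzymes 25 rose and 7 fell, against 13 and 3 without the block (14 and 4 without number 1), and this list had the most gained members, 16. Fibronectin, Fn1, was at 9886, 10204 and 10909 CPM in EV and 12659, 13289 and 13428 CPM in p16 and rose by 0.35 ± 0.030 (adjusted p = 1.9e-08). The crosslinking enzyme Loxl2 rose by 0.35 and thrombospondin 1, Thbs1, rose by 0.26. Of 26 collagens 8 rose and 5 fell, against 6 and 2 without the block. The basement membrane chains Col4a1 and Col4a2, which share a promoter, rose by 0.36 and 0.35, Col4a1 from 1824, 1760.2 and 1817 CPM in EV to 2362, 2233 and 2343 CPM in p16, and Col4a5 rose by 0.43. The microfibrillar Col6a1 was at 538, 538 and 588 CPM in EV and 443, 437 and 498 CPM in p16 and fell by 0.27 ± 0.029 (adjusted p = 3.07e-07). The fibrillar chains Col1a1 (0.16) and Col1a2 (0.15) were gained by pairing. Cartilage and bone genes fell in 6 of 18 and none rose. Acan (chromosome 7, 79053483 to 79115099, plus strand), the proteoglycan aggrecan, was at 23, 24.7 and 40.3 CPM in EV and 13.6, 13.5 and 18.4 CPM in p16. Number 3 was highest in both groups, the groups did not overlap, and Acan fell by 0.93 ± 0.066 (adjusted p = 7.35e-10). The transcription factor Runx3 fell by 0.74, and Sox9 (-0.19) and Runx2 (-0.16), which drive cartilage and bone, were gained as falls, with left-out p of 0.293 and 0.0974.

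TGF-beta and BMP genes rose in 9 of 29 and fell in 5, against 7 and 1 without the block and 7 and 2 without number 1. Fst, the activin antagonist follistatin, was at 137, 134 and 121 CPM in EV and 98.2, 94 and 94.2 CPM in p16 and fell by 0.45 ± 0.043 (adjusted p = 6.05e-08), and it was higher with p21 than with p16 (0.26 ± 0.043, adjusted p = 9.77e-05). The ligands Tgfb2 and Tgfb3 rose by 0.36 and 0.27, while the receptors Tgfbr1 (-0.16) and Tgfbr3 (-0.31) were gained as falls, Tgfbr1 with a left-out p of 0.19. YAP and TEAD targets rose in 11 of 24, 7 without the block and 5 without number 1, and none fell; on library totals 8 rose and 3 fell. Ankrd1 led them (0.37 ± 0.033, adjusted p = 2.99e-08), and Ctgf, listed under its older symbol, was at 2866, 2991 and 2931 CPM in EV and rose by 0.19. Immediate early and MAP kinase feedback genes gave 8 of 30 higher, among them the phosphatases Dusp4 (0.46) and Dusp1 (0.33), and 5 lower, led by Egr3 (-0.46), against 5 and 1 without the block and 4 and 1 without number 1.

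Of 20 genes of lysophosphatidic acid and lipid mediators 6 rose and 2 fell, against 3 and 1 without the block. Enpp2 (chromosome 15, 54838901 to 54952892, minus strand), the secreted enzyme autotaxin that makes lysophosphatidic acid, was at 18.1, 18.6 and 16 CPM in EV and 8.65, 10.5 and 8.78 CPM in p16, a fall with no overlap, and fell by 0.91 ± 0.075 (adjusted p = 8.64e-09). It was higher with p21 than with p16 (0.38 ± 0.078, adjusted p = 0.00094). The phospholipase Pla1a rose by 1.01 from 2, 1.77 and 2.11 CPM in EV, and the phosphatase Ppap2a, which degrades lysophosphatidic acid, was gained as a rise (0.23). Hedgehog and Wnt genes gave 6 of 31 lower and 3 higher, against 3 and 0 both without the block and without number 1, and 29.0% of the list was called beside 21.4% of all genes. Gas1, a hedgehog co-receptor named for growth arrest, was at 18.5, 18.3 and 20.4 CPM in EV and 9.13, 10.3 and 14.2 CPM in p16 and fell by 0.78 ± 0.079 (adjusted p = 1.45e-07). Of its exon bases 19.9% lie under a gene on the opposite strand. The transcription factor Gli2 fell by 0.40.

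In metabolism, cholesterol synthesis gave 9 of 25 lower and 2 higher, against 4 and 0 without the block and 2 and 0 without number 1. The shares called in these fits were 44%, 16% and 8%, beside 21.4%, 11.4% and 9% of all genes. The named falls were Pmvk (-0.26), Stard4 (-0.23), Lss (-0.20) and, gained by pairing, Idi1 (-0.20). Lss did not pass without number 1 or without its EV library (-0.17 and -0.15, left-out p of 0.0816), and Idi1 had a left-out p of 0.126. Glycolysis and hypoxia genes gave 10 of 28 higher and 1 lower, 7 and 0 without the block and 2 and 0 without number 1. The shares called were 39.3%, 25% and 7.14%, so that without number 1 this list too was not above the 9% of all genes. The prolyl hydroxylase P4ha1 was at 433, 446 and 461 CPM in EV and 526, 548 and 562 CPM in p16, a rise of 0.29 ± 0.031 (adjusted p = 4.06e-07). Egln3, a hypoxia-induced prolyl hydroxylase, was gained as a rise (0.26), did not pass without number 1 (0.21, adjusted p = 0.0565) and was lower with p21 than with p16 (-0.66 ± 0.056, adjusted p = 4.84e-09). The nuclear-encoded respiratory chain gave 1 of 37 higher and 1 lower (5.41%), beside 21.4% of all genes, and 1 and 0 without number 1. In the fit of the EV and p16 libraries alone it gave 7 higher and 4 lower (29.7%), beside 32.1% of all genes.

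Genes of the cornified envelope and clade B serpins, an epidermal set, rose in 11 of 15 and none fell, with 7 without the block and 5 without number 1, and a median of 0.572. Lce1h was at 3.18, 2.68 and 2.97 CPM in EV and 8.18, 4.87 and 5.52 CPM in p16 and rose by 1.06 ± 0.107 (adjusted p = 1.54e-07). Lce1f was at 0.794, 0.652 and 0.876 CPM in EV and 2.74, 1.84 and 1.92 CPM in p16 and rose by 1.49 ± 0.186 (adjusted p = 3.44e-06), and the protease inhibitor Serpinb9b rose by 0.66. Involucrin, Ivl, was under 1 CPM in all 6 libraries, at 0.289, 0.257 and 0.128 CPM in EV and 0.794, 0.716 and 0.489 CPM in p16. Lce1 genes are near-identical neighbours, so reads can be split among them. Of the keratinocyte markers 5 of 11 were tested, their summed levels overlapped at 60.3 to 78.1 CPM in EV and 67.1 to 82.0 CPM in p16, Esrp1 was at 0 in every library, and the basal keratinocyte factor Trp63 did not pass (-1.01 ± 0.575, adjusted p = 0.233).

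**Figure D5:**
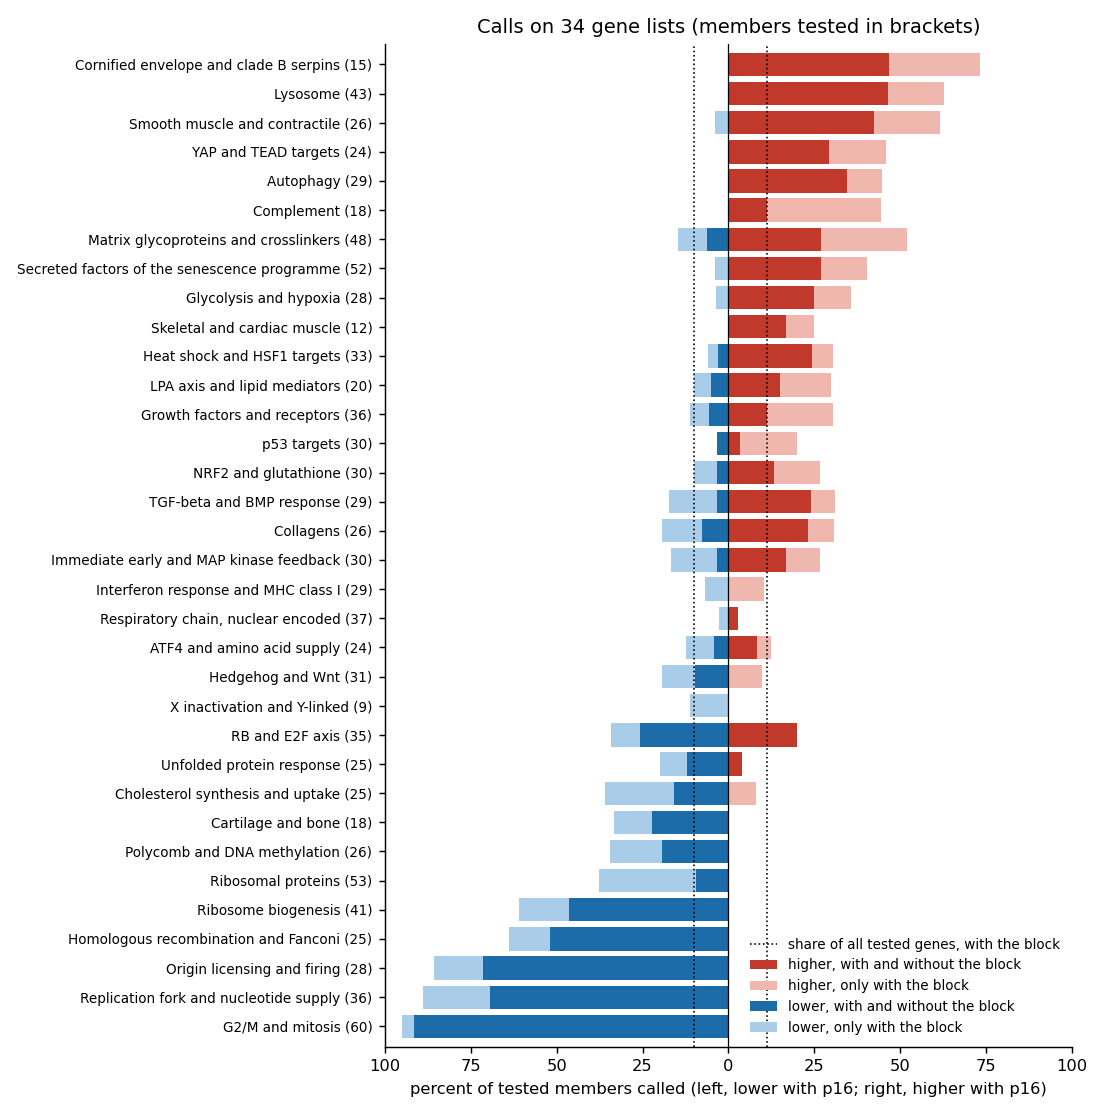
Percent of tested members called lower (left) and higher (right) with p16 on each of 34 gene lists, with the members tested in brackets; dark bars were called with and without the replicate block, pale bars only with it, and dotted lines mark the share of all tested genes called in each direction with the block (10.1% and 11.3%). Mitosis and replication lists reach 85.7% to 95.0% lower with mostly dark bars, while complement, interferon and ribosomal protein bars are mostly pale.

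Outside these lists, the largest rises among genes with a mean log2 CPM of at least 1 also included Dcaf12l1 (1.01), the cytokine Tnfsf15 (0.95), Parm1 (0.93) and the sialic acid hydroxylase Cmah (0.91), all at low levels of under 10 CPM. The largest falls included the urea transporter Slc14a1 (-0.92), the interleukin-33 receptor Il1rl1, Wfdc2 (-0.75, only with the block) and the nuclease Ankle1 (-0.73). Il1rl1 (chromosome 1, 40429570 to 40465415, plus strand) was the most abundant of them, at 547, 456 and 336 CPM in EV and 297, 276 and 192 CPM in p16. Number 1 was highest and number 3 lowest in both groups, each pair fell, and the p16 library of number 1 stayed below the EV library of number 3. Il1rl1 fell by 0.80 ± 0.038 (adjusted p = 5.46e-13), with an SE of 0.180 and an adjusted p of 0.0138 without the block. Of the 1007 genes tested that stand on any of the 34 lists, 485 passed with the block and 175 of these only with it.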

How the data were processed

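RNA-seq of mouse embryonic fibroblasts, 3 libraries each with an empty vector, p21 or p16, was analysed from the gene counts that the authors deposited. Per the labels' protocols, RNA was column-extracted and libraries were made with a TruSeq v2 kit, which does not mark strand. Per the submitters' processing notes, reads were handled with TopHat2 2.0.14, Bowtie2 2.2.6 and featureCounts 1.4.6 on mm10; the annotation and strand setting are not given in the sources used here. Annotation came from GENCODE (22708 of 24062 symbols matched).

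Counts were tested with edgeR 4.0.16 (R 4.3.3): TMM scaling, filterByExpr by group (minimum count 10, minimum total 15), glmQLFit and glmQLFTest over all 9 libraries with group and replicate number as terms (4 residual degrees of freedom, 6 without the block), and Benjamini-Hochberg adjustment over 14223 genes. The common coefficient of variation was 4% with the block and 7.3% without it. CPM values use the same scaling, except the marker sums, which use library totals alone. The log2 CPM has a prior count of 2. Depth was 44455730 to 63152239 counts per library. Counting error weighs more the lower the level, and not only under 1 CPM. The SE was 0.129 for Pla1a, at a mean log2 CPM of 1.73, and 0.030 for Igfbp4, at 8.67.

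Replicate numbers come from the titles, which do not say what they share. Libraries of the same number deviated from their group means together: r across genes was 0.126 to 0.361 for the 9 same-number pairs of libraries (0.141 to 0.361 between EV and p16) and -0.246 to 0.106 for the 18 pairs of different number. All same-number values exceed 0.1, and the numbers were taken to pair the libraries. The value of 0.1 does not separate the sets, since the highest different-number value, 0.106, exceeds it too. Same-number values were 0.332 to 0.361 for number 3 and 0.126 to 0.202 for the rest. The ground for pairing is therefore weaker outside number 3, where the lowest same-number value is close to the highest different-number value. The comparison, gene lists, tests and block were chosen with earlier results of these data known, including that the block raised the number of calls.

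Genes were named by rule: Cdkn2a and Cdkn1a, the 10 largest rises and falls, the 8 rises and falls with the smallest p among genes called only with the block, and up to 4 members of each list by p. Other genes in the text, among them list members called only with the block, genes that differ between replicate numbers and members that did not pass, were chosen after their values were seen. A few genes that the rule names are not reported here. Alternatives were other scalings and filters, no block, only the 6 EV and p16 libraries, DESeq2 1.42.0, limma-voom 3.58.1, edgeR's glmTreat at 1.5-fold, and leaving out each pair and each EV or p16 library. The procedure was also run on simulated counts with known changes. Their replicate effects and spread were taken from the fit with the block, so that run cannot show whether equal numbers pair the libraries.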

Additional observations from a re-analysis of the deposited data

How the results depend on the processing

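No gene called with the replicate block changed sign under any alternative run. Without the replicate block (no replicate block) 1616 genes were called, 825 higher and 791 lower. The EV and p16 libraries alone, with the replicate block, gave 4487 calls of 13968 genes tested (32.1%), against 3044 with all 9 libraries. Of the 4487 calls 2179 were lower, and 2571 were called only with the block. DESeq2 with the block gave 637 genes called only with the block. Against a 1.5-fold threshold (glmTreat) 9 genes were called, 6 higher and 3 lower. Leaving out a replicate number or a single library gave 1281 to 2173 calls, 677 to 1117 higher and 604 to 1056 lower, with 658 to 1798 genes called only with the block. Cdkn1a, not called, had the opposite sign without EV replicate 1, at -0.0090 (highest of the left-out values 0.11, without EV replicate 2); so had Xist without replicate 3 (0.41) and without EV replicate 3 (3.62, adjusted p = 0.028), against -3.43 without p16 replicate 3. Library totals alone moved the share of higher calls to 35.8%. Named genes lost their calls in 35 cases without the block and in 18, 9 and 6 without replicate 1, 2 and 3. Depth limits the genes around or under 1 CPM (Ttn, Ivl, Usp18), where few reads decide the value.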
